A study of Homo sapiens with 6 samples.

Results

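The junction genes described here encode the proteins that hold neighbouring cells together: cadherins and catenins of adherens junctions, desmogleins, desmocollins, plakophilins and plakins of desmosomes, claudins, occludin and zonula occludens scaffolds of tight junctions, and connexins of gap junctions. The families were chosen with earlier results of these data known and their members by symbol alone, and 91 of the 74852 loci of the deposited table matched. Of these, 29 belonged to adherens junctions, 31 to tight junctions, 14 to desmosomes and 17 to gap junctions. Groups were compared for the 44 genes with a mean normalized read count of at least 10 over the 6 libraries, whereas 21 genes were at 0 in every library and 26 had reads below that minimum, with no value above 15.6. No row carried the symbol JUP (plakoglobin), which was not analysed here.

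Human MDA-MB-231 cells, an established line of mesenchymal-like, triple-negative breast cancer, were transfected 2 times with non-targeting siRNAs (si-CTRL, 3 libraries) or with siRNAs against SAM68 (si-SAM68, 3 libraries), in both groups with the same lipid reagent and in the same serum-containing medium. By the labels, cells were harvested 24 h after the second transfection. Polyadenylated RNA was sequenced, and the deposited value is a normalized read count, the reads of a locus after division by each library's DESeq2 size factor. The comparison is of 1 cell line under transient silencing with 1 pool of siRNAs, and nothing in the labels says that the 3 libraries of a group came from separate cultures, so p-values measure only the spread between these libraries, which may be technical.

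Cadherins are calcium-dependent adhesion receptors whose cytoplasmic tails bind catenins, which in turn reach the actin cytoskeleton, while desmosomal cadherins are tied through plakophilins and desmoplakin to intermediate filaments. Claudins and occludin seal the space between epithelial cells and are anchored by zonula occludens proteins, and connexins form channels that let small molecules pass between cells. Carcinoma cells with a mesenchymal phenotype typically have little E-cadherin (CDH1) and much N-cadherin (CDH2).

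The silencing pool is shown because every comparison rests on it. Its 4 siRNAs are 19 bases long, are written here as the sense strand, and each was found in transcripts of KHDRBS1, the gene encoding Sam68.
siSAM68_1: gcacccauauggacguuau
siSAM68_2: gaaagagcgagugcugaua
siSAM68_3: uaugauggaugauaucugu
siSAM68_4: aaagaucucuguauuggga

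KHDRBS1 had normalized read counts of 15660.4, 14483 and 14737 in si-CTRL replicates 1, 2 and 3 and of 583, 602 and 670.2 in si-SAM68 replicates 1, 2 and 3. All si-SAM68 libraries lay below all si-CTRL libraries, and the si-SAM68 mean was 4.13% of the si-CTRL mean (log2 fold change -4.60, standard error 0.0829, adjusted p = 2.13e-09, limma with Benjamini-Hochberg adjustment over all loci). A two-sided exact permutation test gave p = 0.1 and can go no lower with 3 libraries in each group, so that for single genes only the fit across all loci could pass 0.05.

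Between 52625492 and 82568487 reads per library were recovered. In si-SAM68 replicate 2 an rRNA locus took 15.1% of the reads, against 1.83 to 3.17% in the other libraries, so calls are also given without that library. All 5 markers of the line (VIM, CD44, AXL, MSN and CAV1) had reads in every library. Of the luminal epithelial markers, PGR was at 0, CDH1, EPCAM and ESR1 did not exceed 15.2 in any library, and the summed level of the markers (ERBB3 and KRT19 nearly alone) was 1778 to 1922 in si-CTRL and 2341 to 2929 in si-SAM68 libraries. Their part in the results was not tested. Of the fibroblast markers COL1A1 had many reads and COL1A2 few, while DCN and LUM stayed below 5. PDGFRA is counted in a locus joined with FIP1L1, so the many reads of that locus cannot be given to PDGFRA. The sums, which include this locus, were 150334 to 185527 in si-CTRL and 142736 to 179969 in si-SAM68 libraries. In bulk RNA, fewer cells that express a gene and less of its RNA per cell cannot be told apart.

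Among the 44 tested junction genes, 9 (20.5%) rose and 3 (6.82%) fell upon silencing of SAM68 at an adjusted p under 0.05 (limma), against 4.47% of all 18849 tested loci higher and 6.23% lower. Of the 9, 2 are loci that join several genes (those of CTNND1 and CLDN11). By the thresholds of the study (unadjusted p no higher than 0.05, fold change no lower than 1.5), 5 junction genes were higher and 5 lower, against 2.83 and 4.83% of all loci. All si-SAM68 libraries lay above all si-CTRL libraries in 17 junction genes (38.6%) and below them in 10 (22.7%), against 16.6 and 17.3% of all loci. The median log2 fold change of the junction genes was 0.00, that of all tested loci 0.01, and 22 junction genes had positive and 22 negative values. Levels were alike, with a median mean count of 608 for the junction genes and 610.1 for all loci. Among the 35 junction genes and 15034 loci with a mean of at least 50, the shares called were 25.7 against 5.41% higher and 8.57 against 7.33% lower. Without si-SAM68 replicate 2, 6 junction genes (5 higher and 1 lower) and 808 loci (273 higher and 535 lower) were called. Over all single left-out libraries the junction genes called ranged from 5 (without si-SAM68 replicate 3, with 625 loci) to 15 (without si-CTRL replicate 1, with 2839 loci). With the replicate number as a block, 10 junction genes (6 higher and 4 lower) and 1697 loci (731 higher and 966 lower) were called.

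**Figure D1:**
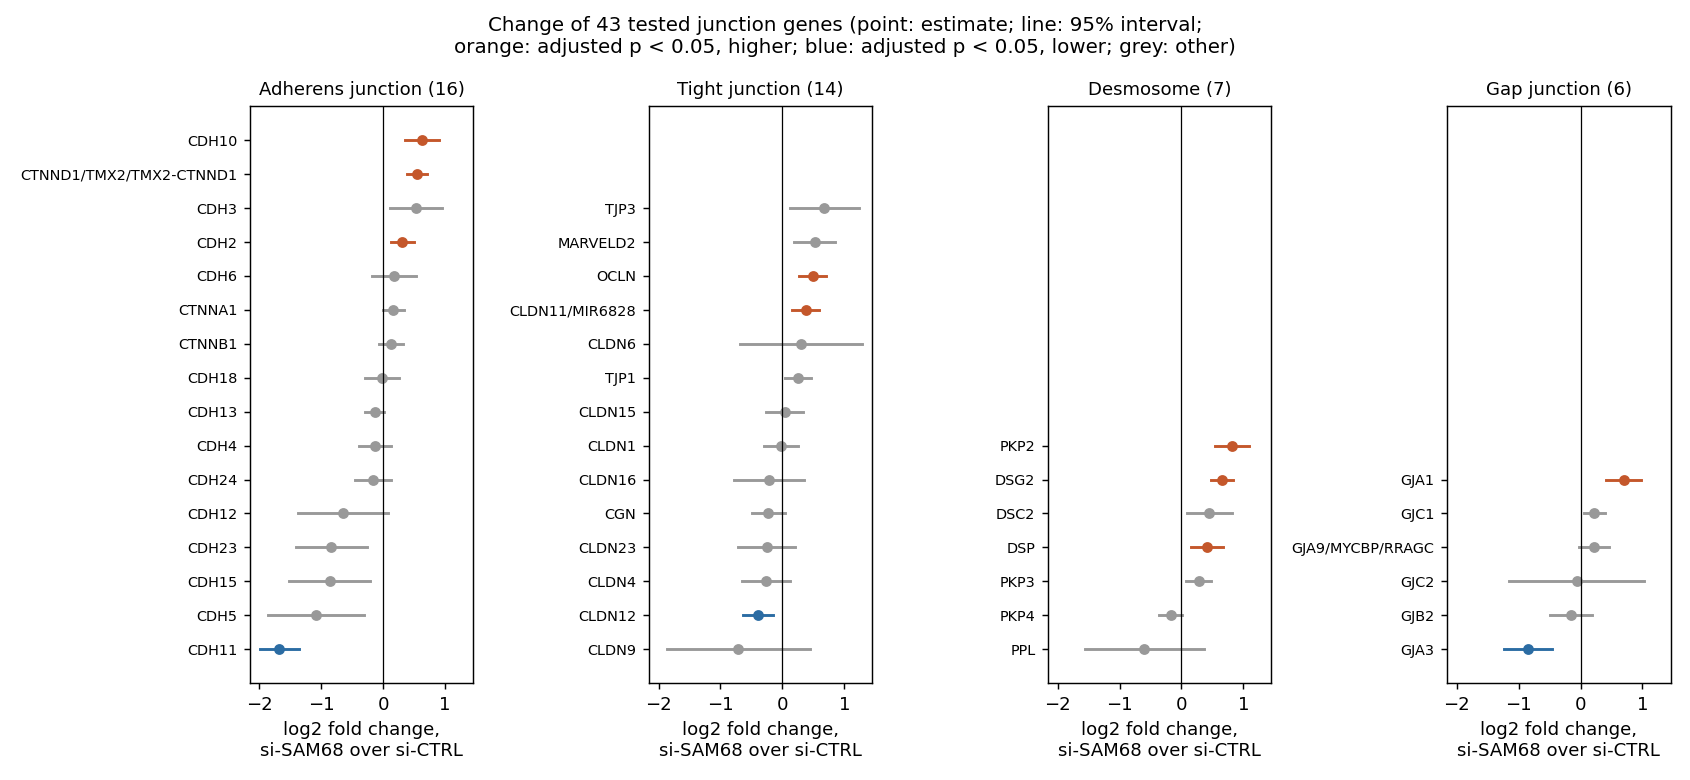
Log2 fold change of 43 of the 44 tested junction genes (x axis, si-SAM68 over si-CTRL, 3 libraries each) in 4 panels by junction type, with the number drawn in brackets; points are limma estimates, lines 95% intervals, orange and blue mark genes higher and lower at adjusted p under 0.05. CDH11 stands lowest at -1.68, PKP2 highest among the called genes at 0.82, and the desmosome panel holds 3 genes called higher.

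Calls in both directions were found in 3 of the 4 junction types. Adherens junction genes had 3 higher and 1 lower of 16 tested (median log2 fold change -0.08), tight junction genes 2 higher and 1 lower of 15 (median -0.03), and gap junction genes 1 higher and 1 lower of 6 (median 0.07). Desmosomal genes had 3 higher of 7 (median 0.42), and the 2 with a negative log2 fold change, PKP4 and PPL, had unadjusted p values of 0.0650 and 0.194 (limma). These classes hold few genes, and whether they differ from each other was not tested.

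CDH2, N-cadherin, was by far the most abundant cadherin RNA in both groups. Its normalized read counts were 26951, 23469 and 22319.6 in si-CTRL replicates 1 to 3 and 29709, 30816 and 29336 in si-SAM68 replicates 1 to 3 (locus GSHG0014238, chr18:25530927-25757410 of hg19, the build of every locus position given here). All si-SAM68 libraries lay above the highest si-CTRL library, replicate 1, by a margin smaller than the spread among the si-CTRL libraries. The mean went from 24247 ± 2412 to 29954 ± 769.7 (SD, n = 3), and CDH2 passed the test narrowly (log2 fold change 0.31, standard error 0.0845, adjusted p = 0.0447, limma). The adjusted p was 0.0592 with the replicate number as a block and 0.0668 after quantile normalization. It was 0.00195 without si-CTRL replicate 1, 0.109 and 0.142 without si-CTRL replicates 2 and 3, and 0.112, 0.163 and 0.128 without si-SAM68 replicates 1, 2 and 3, so that the call held only when the highest control was left out.

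CDH1, E-cadherin, was close to absent. It had 0, 3.87 and 0.951 in the si-CTRL libraries and 2.01, 4.60 and 4.47 in the si-SAM68 libraries, which is no more than 5 reads in any library and too few for a fold change. The P-cadherin gene CDH3 had 116, 87.2 and 111 in si-CTRL and 176, 159 and 122 in si-SAM68 libraries. The groups did not overlap, but CDH3 did not pass the test after adjustment (log2 fold change 0.53, standard error 0.188, adjusted p = 0.104).

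CDH11, a type II cadherin typical of mesenchymal cells and osteoblasts, showed the largest change among the 44 tested junction genes. Its counts were 1141, 850.4 and 873 in si-CTRL replicates 1 to 3 and 258, 313 and 318 in si-SAM68 replicates 1 to 3 (locus GSHG0011888, chr16:64977659-65156040). All si-SAM68 libraries lay far below the lowest si-CTRL library. CDH11 fell 3.2-fold, from 955 ± 162 to 296 ± 33.4 (SD, n = 3; log2 fold change -1.68, standard error 0.140, adjusted p = 0.000250, limma), and the call held with each library left out.

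CDH10, a type II cadherin known mainly from the brain, rose instead. Counts were 714, 771 and 663 in the si-CTRL libraries and 1332, 997 and 1012 in the si-SAM68 libraries (locus GSHG0024690, chr5:24487210-24645087). The groups were well apart, with si-SAM68 replicate 1 the highest of all. The mean rose 1.54-fold (log2 fold change 0.63, standard error 0.126, adjusted p = 0.0144, limma), and the adjusted p stayed under 0.05 with each library left out. CDH10 and CDH11, both type II cadherins, moved in opposite directions.

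Several cadherins with few reads had lower counts after silencing but did not pass adjustment. CDH5, the VE-cadherin of endothelium, had 42.5, 28.1 and 20.9 in si-CTRL and 16.1, 12.9 and 11.2 in si-SAM68 libraries (log2 fold change -1.09, standard error 0.347, adjusted p = 0.0756). CDH15, the M-cadherin of muscle precursors, had 31.2, 35.8 and 30.4 in si-CTRL and 20.1, 12.9 and 20.1 in si-SAM68 libraries (log2 fold change -0.86, standard error 0.294, adjusted p = 0.0916). CDH23, a cadherin of the tip links of hair cells, had 146, 112 and 99.8 in si-CTRL and 86.6, 71.8 and 44.7 in si-SAM68 libraries (log2 fold change -0.84, standard error 0.257, adjusted p = 0.0648). In all 3 the groups did not overlap, and each met the p and fold change thresholds of the study only. With the replicate block the adjusted p of CDH23 was 0.0351, but this locus lies over C10orf54, whose mean count was 1044, and use of strand in counting is not given in the sources used here. The endothelial markers PECAM1, VWF, CDH5, CLDN5, KDR and TEK summed to 49.4 to 76.2 in si-CTRL and 31.3 to 35.7 in si-SAM68 libraries, with KDR and TEK at 0 in all, and their part in the CDH5 values was not tested.

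Because counts of different genes compare only per length, levels within a family were expressed as normalized reads per kb of exon. CDH2 stood at 4898 reads per kb in si-CTRL cells, above the GPI-anchored cadherin CDH13 (1259.8) and the R-cadherin gene CDH4 (752), both named after their values were seen, whereas CDH11 stood at 71.3. The share of CDH2 among the reads per kb of the 13 tested cadherins was 62.5 to 63.05% in si-CTRL libraries and 67.3 to 69.8% in si-SAM68 libraries. The shares of CDH13 were 15.2 to 17.1% and 12.8 to 13.45%, and those of CDH11 0.838 to 0.9875% and 0.216 to 0.280%. In none of these 3 genes did the library shares of the groups overlap. Shares within a family depend on each other, because a larger share of any gene leaves less for the rest. The counts of CDH13 themselves did not pass the test (log2 fold change -0.13, standard error 0.0684, adjusted p = 0.240).

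**Figure D2:**
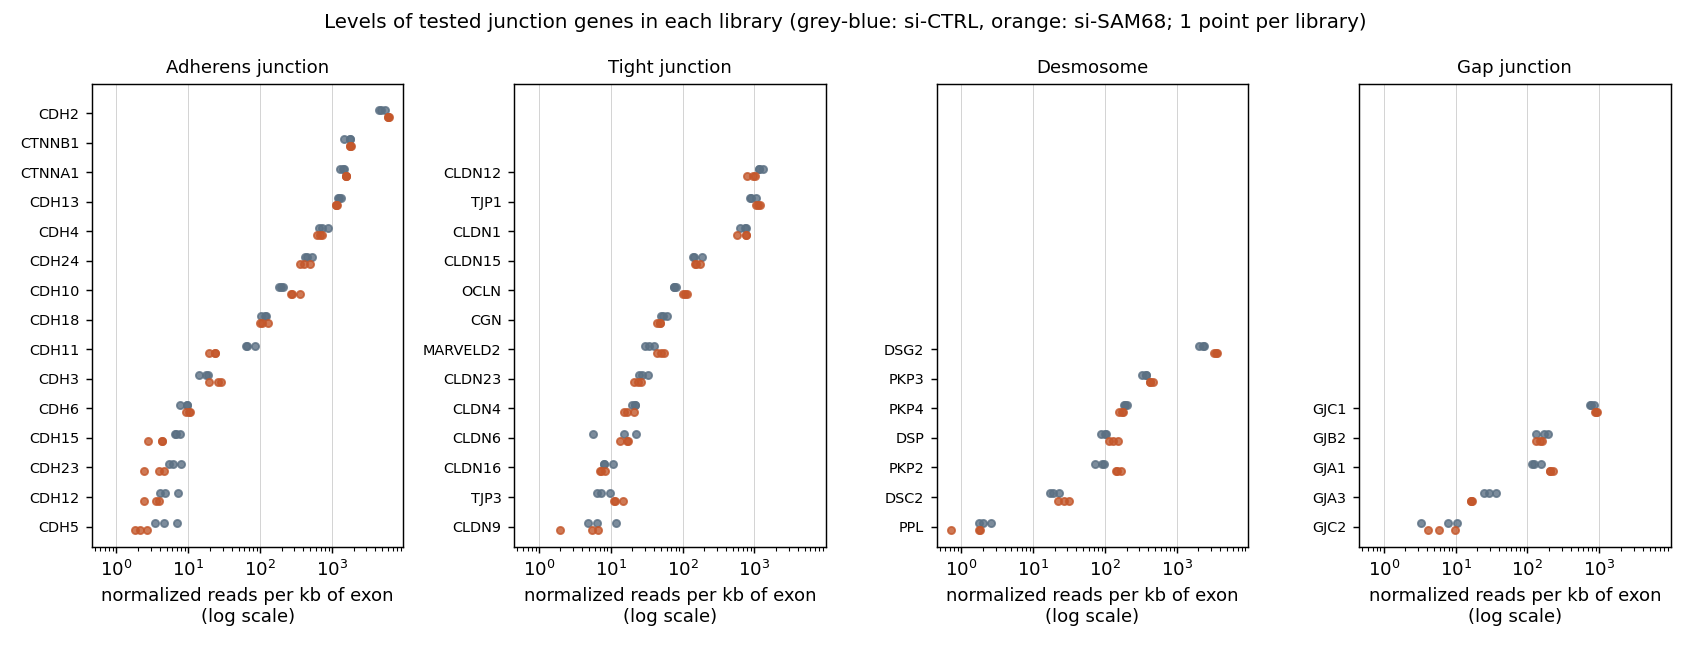
Normalized reads per kb of exon (x axis, log scale) of the drawn junction genes that match a single symbol, in 4 panels by junction type, with 1 point per library, grey-blue for si-CTRL and orange for si-SAM68. CDH2 and DSG2 lead their panels at 4898 and 2229 reads per kb in si-CTRL cells, and CDH11 is the gene with the widest gap between the groups.

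Of the catenins, which couple cadherins to the cytoskeleton, the locus of CTNND1 rose. CTNND1 encodes the catenin that binds the membrane-near part of the cadherin tail and retains cadherins at the surface. It is counted in 1 locus with TMX2 and the readthrough gene TMX2-CTNND1 (GSHG0004849, chr11:57479995-57586652), so its reads cannot be given to CTNND1 alone, and it overlaps C11orf31. The locus had 5219, 5759 and 5329 in si-CTRL replicates 1 to 3 and 7794, 8005 and 8082 in si-SAM68 replicates 1 to 3. The groups were separated by far more than the spread within each (log2 fold change 0.55, standard error 0.0725, adjusted p = 0.00207, limma), and the call held with each library left out.

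CTNNB1, the gene of beta-catenin, which also acts in Wnt signalling, had 17510.2, 21046 and 20957 in si-CTRL and 21794, 21419.6 and 21444 in si-SAM68 libraries. CTNNA1, whose product binds actin, had 11395, 12958 and 12719.8 in si-CTRL and 13885, 13829.6 and 13719.8 in si-SAM68 libraries. In both genes si-CTRL replicate 1 was the lowest library and the si-SAM68 libraries lay just above the other controls. Neither passed the test, with adjusted p = 0.383 and a 95% interval of the log2 fold change of -0.07 to 0.32 for CTNNB1, and adjusted p = 0.196 and -0.0043 to 0.33 for CTNNA1 (limma). CTNNB1 stood at 1663 and CTNNA1 at 1399.5 reads per kb in si-CTRL cells, behind CDH2 only among the tested adherens genes of a single symbol.

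In desmosomes, the desmosomal cadherin DSG2, its plakophilin partner PKP2 and the plakin DSP all rose. DSG2, the most widely expressed desmoglein, had 12662, 14146 and 14577 in si-CTRL replicates 1 to 3 and 20619.8, 22723 and 21772 in si-SAM68 replicates 1 to 3 (locus GSHG0013979, chr18:29077967-29128968). Every si-SAM68 library lay far above every si-CTRL library. DSG2 rose 1.57-fold, from 13795 ± 1005 to 21705 ± 1053 (SD, n = 3; log2 fold change 0.66, standard error 0.0803, adjusted p = 0.00142, limma). PKP2, an armadillo protein of the desmosomal plaque, had 639.9, 679.9 and 513 in si-CTRL and 1191, 1028 and 1003 in si-SAM68 libraries (locus GSHG0007368, chr12:32943680-33049780). It rose 1.76-fold with no overlap of the groups (log2 fold change 0.82, standard error 0.125, adjusted p = 0.00419, limma). Both calls held with each library left out.

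DSP, desmoplakin, which links the plaque to intermediate filaments, had 1035, 1022 and 902 in si-CTRL and 1137, 1509.5 and 1323 in si-SAM68 libraries (locus GSHG0025407, chr6:7541808-7586950). The groups did not overlap, but the si-SAM68 libraries spread widely and DSP passed only narrowly (log2 fold change 0.42, standard error 0.116, adjusted p = 0.0483, limma). The adjusted p was 0.0601 with the replicate block and 0.05002 after quantile normalization. Leaving out si-CTRL replicate 1 gave 0.0233 and leaving out si-SAM68 replicate 1 gave 0.0430, but it was 0.0740 and 0.136 without si-CTRL replicates 2 and 3 and 0.190 and 0.160 without si-SAM68 replicates 2 and 3.

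The remaining desmosomal genes did not pass. DSC2, the desmocollin of simple epithelia, had 239, 288 and 214 in si-CTRL and 277, 339 and 398 in si-SAM68 libraries, which overlap (log2 fold change 0.45, standard error 0.164, adjusted p = 0.112). PKP3, another plakophilin, had 1256, 1419.9 and 1426 in si-CTRL and 1747, 1606 and 1612 in si-SAM68 libraries, which do not (log2 fold change 0.28, standard error 0.0888, adjusted p = 0.0767), and DESeq2 on the recovered reads gave it an adjusted p of 0.0442. PPL, periplakin of the cornified envelope, had only 20.0, 13.6 and 15.2 in si-CTRL and 14.1, 5.52 and 13.4 in si-SAM68 libraries (log2 fold change -0.60, standard error 0.432, adjusted p = 0.405). Desmogleins and desmocollins of skin were nearly silent, with DSG1 and DSC1 at 0 in every library, DSG3 at no more than 12.9 and DSC3 at no more than 15.6. Of 10 keratinocyte markers, 5 (KRT1, LOR, DSG1, DSC1 and KRT5) were at 0, and the summed level, nearly all KRT10, was 786 to 1208 in si-CTRL and 981 to 1124 in si-SAM68 libraries.

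Per kb, DSG2 was the leading desmosomal gene, with 2229 reads per kb in control cells and 3506 after silencing, followed by PKP3 with 361 and 437. Among the 3 tested plakophilins the share of PKP2 was 11.5 to 14.65% in si-CTRL libraries and 19.6 to 20.95% in si-SAM68 libraries, while that of PKP4, a plakophilin relative also found at adherens junctions, was 28.5 to 32.05% and 21.7 to 23.1%. Neither pair of ranges overlapped. The counts of PKP4, named after its values were seen, did not pass the test (log2 fold change -0.18, standard error 0.0848, adjusted p = 0.216).

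**Figure D3:**
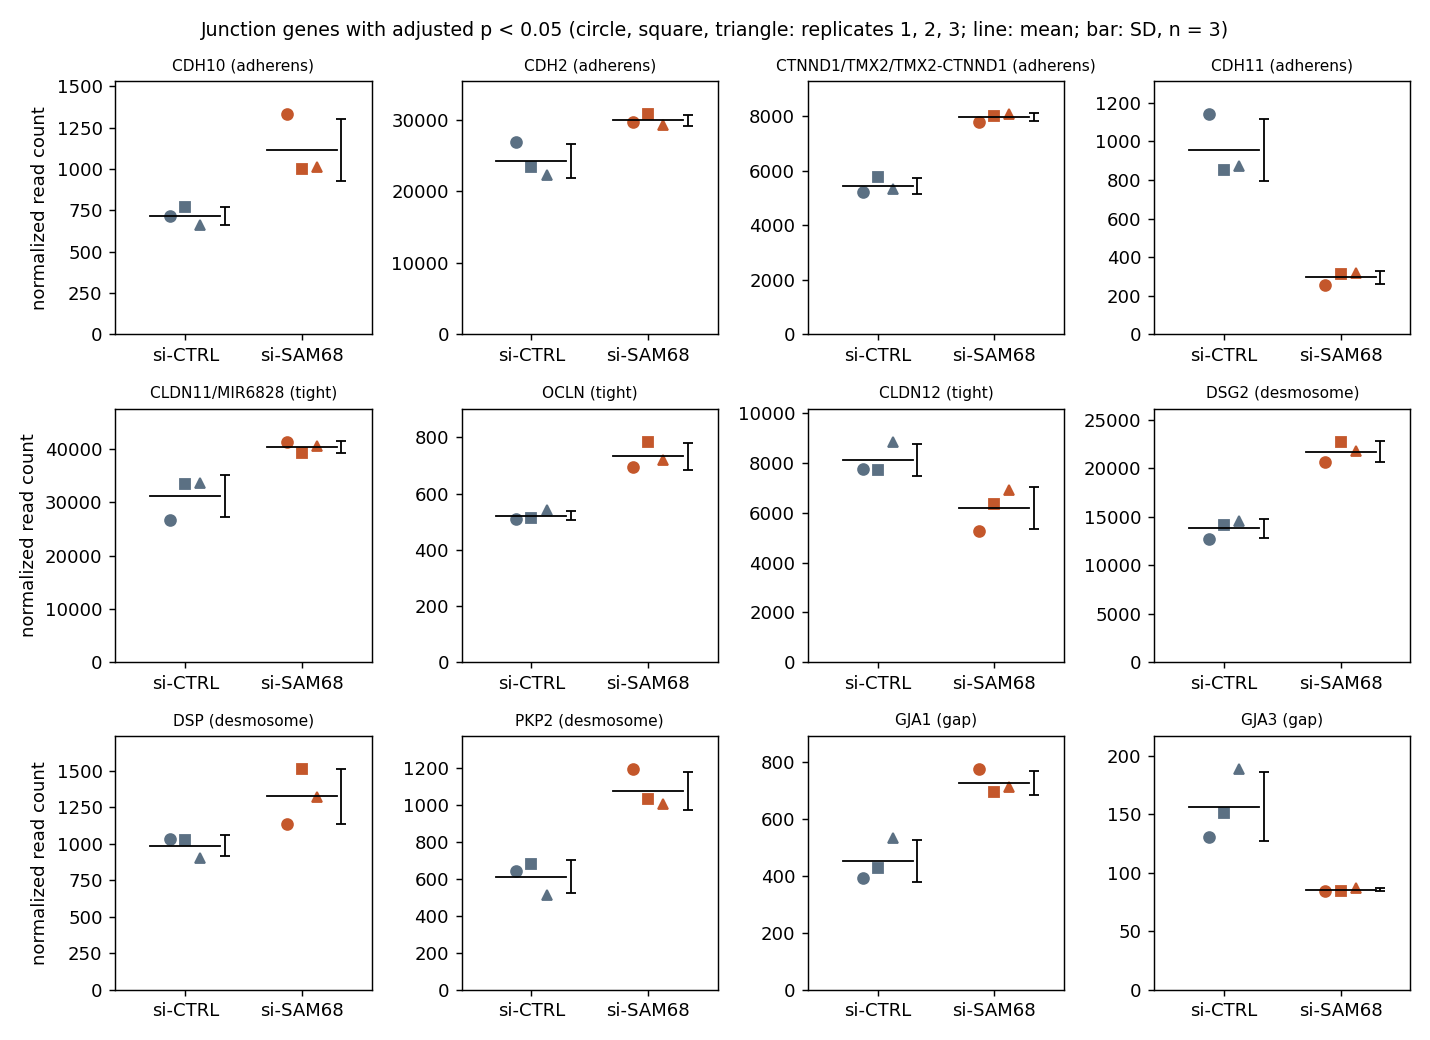
Normalized read counts (y axis from 0) of the 12 junction genes with adjusted p under 0.05, 1 panel per gene, in si-CTRL and si-SAM68 libraries; circle, square and triangle are replicates 1, 2 and 3, the line is the mean and the bar the SD (n = 3). The groups do not overlap in any panel, the gap is wide for CDH11, CTNND1 and DSG2, and it is narrow for CDH2 and DSP.

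At tight junctions, OCLN and the locus of CLDN11 rose and CLDN12 fell. OCLN, occludin, a membrane protein of the tight junction strand, had 509.9, 514 and 541 in si-CTRL and 693, 785 and 719 in si-SAM68 libraries (locus GSHG0023995, chr5:68788119-68853931). The control libraries were tightly grouped and all si-SAM68 libraries lay above them. OCLN rose 1.4-fold (log2 fold change 0.49, standard error 0.0966, adjusted p = 0.0135, limma), but leaving out si-SAM68 replicate 2 gave an adjusted p of 0.0767, and leaving out replicate 3 of that group gave 0.0602. Its relative MARVELD2, tricellulin, which seals the corners where 3 cells meet, had 217, 163 and 181 in si-CTRL and 298, 266 and 240.2 in si-SAM68 libraries and missed the threshold (log2 fold change 0.52, standard error 0.150, adjusted p = 0.0531). MARVELD2, named after its values were seen, passed without si-CTRL replicate 1 (0.0132), after quantile normalization (0.0429) and with DESeq2 (0.0228).

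CLDN12, a claudin without the usual PDZ-binding end, had 7771, 7704 and 8860.1 in si-CTRL replicates 1 to 3 and 5254, 6361 and 6912 in si-SAM68 replicates 1 to 3 (locus GSHG0027508, chr7:90032648-90045266). In both groups replicate 3 was the highest, and the groups did not overlap. CLDN12 fell 1.32-fold (log2 fold change -0.40, standard error 0.108, adjusted p = 0.0430, limma) and had an adjusted p of 0.0298 with the replicate block. Without single libraries the call held only without si-CTRL replicate 1 (0.0198), the values being 0.0595 and 0.126 without si-CTRL replicates 2 and 3 and 0.121, 0.103 and 0.0631 without si-SAM68 replicates 1, 2 and 3.

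The locus that joins CLDN11, the claudin of myelin and of the testis barrier, with MIR6828 spans 441.5 kb (GSHG0132324, chr3:170136653-170578169), far more than a claudin gene, so its reads cannot be given to CLDN11. It had 26679, 33522 and 33572 in si-CTRL and 41422, 39256 and 40624 in si-SAM68 libraries. Without overlap of the groups, si-CTRL replicate 1 stood low among the controls. The locus was higher in si-SAM68 cells (log2 fold change 0.38, standard error 0.0973, adjusted p = 0.0363, limma), with an adjusted p of 0.0538 with the replicate block and of 0.114, 0.0954 and 0.131 without si-SAM68 replicates 1, 2 and 3.

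CLDN1, a barrier claudin of skin and the other claudin with many reads, had 2795, 2318 and 2699.9 in si-CTRL and 2123, 2800.1 and 2787 in si-SAM68 libraries. The groups overlapped, and the 95% interval of its log2 fold change was -0.30 to 0.25 (adjusted p = 0.918, limma). CLDN4, a claudin of many epithelia, had 92.5, 103 and 104 in si-CTRL and 97.7, 79.1 and 72.6 in si-SAM68 libraries (adjusted p = 0.362, limma). CLDN3 and CLDN7, which mark epithelial cells with intact tight junctions, did not exceed 10.1 and 6.78 in any library. CLDN3 had 7.50, 5.81 and 4.75 in si-CTRL and 8.06, 10.1 and 6.70 in si-SAM68 libraries, and CLDN7 had 0, 6.78 and 3.80 in si-CTRL and 2.01, 1.84 and 3.35 in si-SAM68 libraries. Per kb, CLDN12 stood at 1203 and CLDN1 at 711 in si-CTRL cells, and at 916 and 702 in si-SAM68 cells. Among the 8 tested claudins of a single symbol the share of CLDN12 was 53.3 to 57.8% in si-CTRL libraries and 48.8 to 51.0% in si-SAM68 libraries, and that of CLDN1 31.4 to 35.3% and 36.3 to 39.6%.

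Neither of the zonula occludens scaffolds TJP1 and TJP3 passed adjustment. TJP1 had 11788, 10195 and 9668 in si-CTRL and 11725, 13583 and 12442 in si-SAM68 libraries, which overlap (log2 fold change 0.26, standard error 0.0935, adjusted p = 0.111), and its adjusted p was 0.00970 without si-CTRL replicate 1. Its locus overlaps others, among them loci of the GOLGA8 family, with which reads can be shared. The highest mean count among the overlapping loci was 69.8, against 11567 for TJP1. TJP3, a scaffold found mainly in epithelia, had 27.5, 41.6 and 30.4 in si-CTRL and 63.5, 46.9 and 49.2 in si-SAM68 libraries with no overlap, meeting only the p and fold change thresholds of the study (log2 fold change 0.67, standard error 0.250, adjusted p = 0.116). TJP3 overlaps POLRMT and APBA3, of which the one with more reads had a mean count of 1960.3. TJP1 stood at 937 reads per kb in si-CTRL cells and at 1117 in si-SAM68 cells.

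Of the connexins, GJA1 rose and GJA3 fell. GJA1, the most widespread connexin and that of heart muscle, had 392, 428 and 535 in si-CTRL replicates 1 to 3 and 776, 695 and 715 in si-SAM68 replicates 1 to 3 (locus GSHG0026001, chr6:121756723-121770890). All si-SAM68 libraries lay above the highest control, replicate 3. GJA1 rose 1.62-fold (log2 fold change 0.70, standard error 0.127, adjusted p = 0.00940, limma), and without si-SAM68 replicate 3 its adjusted p was 0.0528. GJA3, a connexin of the lens, had 130.0, 151 and 188 in si-CTRL and 84.6, 84.6 and 87.1 in si-SAM68 libraries (locus GSHG0036560, chr13:20712397-20735183). The si-SAM68 libraries were nearly identical, whereas the controls spread widely above them. GJA3 fell 1.8-fold (log2 fold change -0.85, standard error 0.172, adjusted p = 0.0148, limma), with an adjusted p of 0.0550 without si-CTRL replicate 3 and of 0.0540, 0.0516 and 0.0656 without si-SAM68 replicates 1, 2 and 3.

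GJC1, a connexin of the cardiac conduction system, was the most abundant connexin per kb, with 779 reads per kb in si-CTRL cells, ahead of GJB2 (165) and GJA1 (132). Its counts were 7320.3, 6581 and 6336 in si-CTRL and 7663, 8012 and 7909 in si-SAM68 libraries, without overlap (log2 fold change 0.22, standard error 0.0780, adjusted p = 0.0986), and its adjusted p was 0.00970 without si-CTRL replicate 1. GJB2, a connexin of the inner ear and skin, had 335, 433 and 495 in si-CTRL and 336, 386 and 399.9 in si-SAM68 libraries, which overlap (log2 fold change -0.16, standard error 0.152, adjusted p = 0.551). Among the reads per kb of the 5 connexins of a single symbol, the share of GJA1 was 10.3 to 13.9% in si-CTRL libraries and 15.7 to 17.9% in si-SAM68 libraries, and that of GJA3 2.23 to 3.20% and 1.25 to 1.28%, while the ranges of GJC1, 64.8 to 75.5% and 69.65 to 71.1%, overlapped. GJA9 is counted in 1 locus with MYCBP and RRAGC, and that locus did not pass (adjusted p = 0.244, limma). Of the 17 connexins, 8 were at 0 in every library.

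**Figure D4:**
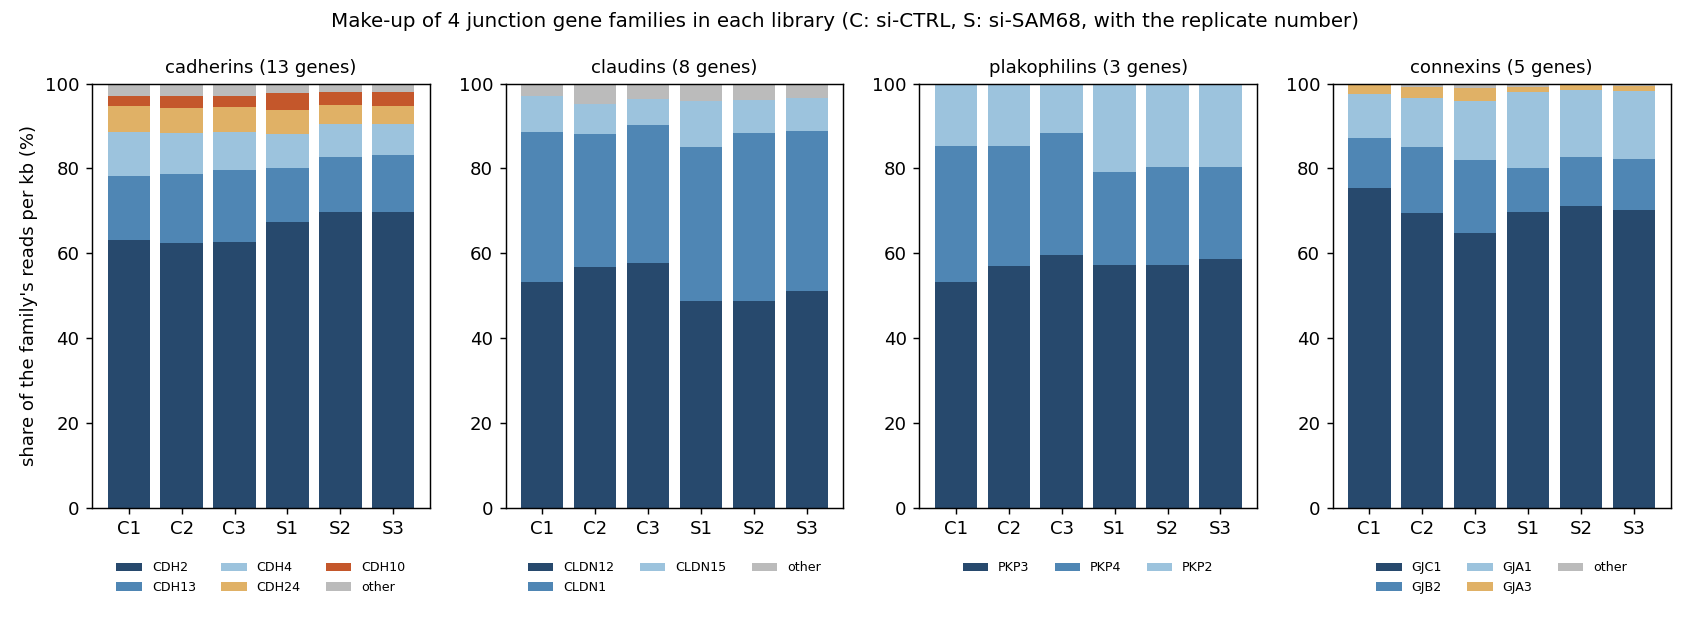
Share of each family's normalized reads per kb (y axis, %) taken by its leading genes in each library (C for si-CTRL, S for si-SAM68, with the replicate number), for the tested cadherins, claudins, plakophilins and connexins of a single symbol. CDH2 takes 62.5 to 63.05% of the cadherin reads per kb in si-CTRL and 67.3 to 69.8% in si-SAM68 libraries, and PKP2 takes 11.5 to 14.7% and 19.6 to 20.95% of the plakophilin reads per kb.

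Without si-SAM68 replicate 2, the library with the high rRNA share, CDH11, CDH10, the CTNND1 locus, DSG2, PKP2 and GJA1 kept their calls (adjusted p = 0.00114, 0.0290, 0.0168, 0.0115, 0.0169 and 0.0309, limma). The other 6 genes kept their direction and missed the threshold, with adjusted p values of 0.0516 to 0.190.

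Proteins of junctions and cell polarity that lie outside the chosen families were followed as a separate group, in which 70 rows were found and 54 tested. Of these, 11 (20.4%) were higher and 5 (9.26%) lower at adjusted p under 0.05, with a median log2 fold change of 0.05, beside 4.47 and 6.23% of all loci. The examples named were chosen after their values were seen. CXADR, an adhesion receptor of tight junctions, had 184, 179 and 162 in si-CTRL and 417, 423 and 369.7 in si-SAM68 libraries (log2 fold change 1.20, standard error 0.121, adjusted p = 0.000681, limma). F11R, a junctional adhesion molecule counted in 1 locus with TSTD1, had 1439.8, 1263 and 1362 in si-CTRL and 2646, 2743 and 2548 in si-SAM68 libraries (log2 fold change 0.97, standard error 0.0839, adjusted p = 0.000307, limma). Both were clear of overlap. The polarity scaffold PATJ had 785, 946 and 822 in si-CTRL and 1533, 1532 and 1544 in si-SAM68 libraries (log2 fold change 0.86, standard error 0.0946, adjusted p = 0.000935, limma), and PARD6B, a partner of atypical protein kinase C, had 271, 372 and 414 in si-CTRL and 638, 626 and 710.5 in si-SAM68 libraries (log2 fold change 0.92, standard error 0.154, adjusted p = 0.00651, limma). These 4 calls held with each library left out, as did that of DCHS1, a giant cadherin of planar polarity, which fell from 93.7, 107 and 87.5 to 47.3, 47.8 and 35.7 (log2 fold change -1.13, standard error 0.201, adjusted p = 0.00844, limma). JAM2, a junctional adhesion molecule of endothelium, had 399, 296 and 314 in si-CTRL and 200.5, 196 and 162 in si-SAM68 libraries (log2 fold change -0.84, standard error 0.152, adjusted p = 0.00881, limma), with an adjusted p of 0.0541 without si-SAM68 replicate 3. With the replicate block, LLGL2 and PANX2 missed the threshold (adjusted p = 0.0508 and 0.0648) and PERP passed it (adjusted p = 0.0259, against 0.0596 without the block). Without single libraries the counts ran from 5 higher and 1 lower without si-SAM68 replicate 3 to 16 higher and 7 lower without si-CTRL replicate 1. Of all loci, 223 were higher and 402 lower in the former fit, and 1322 and 1517 in the latter.

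Among 27 transcription and splicing regulators of epithelial junction genes, 18 were tested, none was higher (1, SNAI3, at an unadjusted p under 0.05, and none with edgeR or DESeq2) and 4 (22.2%) were lower (ZEB1, FOXC2, EHF and KLF4), beside 4.47 and 6.23% of all loci. The median log2 fold change was -0.31, against 0.00503 over all loci. With the replicate block these 4 and TCF3 were lower (TCF3 adjusted p = 0.0424, against 0.0558 without the block). Between 0 (without si-SAM68 replicate 1) and 6 genes (without si-CTRL replicate 2) were called without single libraries, beside 923 and 1592 of all loci in these fits. ZEB1, a repressor that binds E-boxes in promoters of CDH1 and other epithelial genes, had 5988, 4503 and 4947 in si-CTRL and 2871, 3547 and 3523 in si-SAM68 libraries (log2 fold change -0.63, standard error 0.121, adjusted p = 0.0118, limma), with an adjusted p of 0.0521 without si-SAM68 replicate 1. FOXC2, EHF and KLF4 had log2 fold changes of -0.89, -1.03 and -0.56. None of them was called when any si-SAM68 library was left out (adjusted p of 0.0671 to 0.105, limma). The related ZEB2, SNAI1 and SNAI2 were not called (adjusted p = 0.468, 0.675 and 0.217, limma). What these regulators did to junction genes was not tested.

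Promoters are shown as a description of sequence, for the short E-box that repressors of the ZEB and SNAIL type read. The hexamer CACCTG or its reverse complement CAGGTG was searched in the 250 bases before the RefSeq start site (GRCh38.p14), where 58 of the 91 junction genes had a promoter in the table used. For each junction gene only the first RefSeq start site listed was searched, which can lie inside the gene, whereas every listed promoter was counted for all genes. Of all 35116 promoters 17.5% held a match, and of the 58 junction promoters 17.2% (10). Among the tested genes, matches were found in 3 of 7 higher, 1 of 2 lower and 3 of 18 that were not called. The 7 include CLDN11, to which the reads of its joined locus cannot be given. CDH11, PKP2, CTNND1 and CDH1 had no promoter in the table used. The 30 bases around the match nearest to the start site are given on the gene's strand with the hexamer in capitals, for the 3 higher genes, the lower gene and the 3 that were not called.
DSG2, chr18:31498049-31498078, plus strand, 116 bases before the start: tcgcggcggccaCACCTGgagccgcgcctt
DSP, chr6:7541574-7541603, plus strand, 85 bases before the start: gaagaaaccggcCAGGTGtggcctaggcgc
OCLN, chr5:69492502-69492531, plus strand, 33 bases before the start: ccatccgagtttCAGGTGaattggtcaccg
GJA3, chr13:20161251-20161280, minus strand, 216 bases before the start: ccagggcccgcgCAGGTGcgggatggggat
CDH4, chr20:61499391-61499420, plus strand, 16 bases before the start: gcgggactggggtgCAGGTGtgcctggttc
DSC2, chr18:31102560-31102589, minus strand, 156 bases before the start: tcaactttctgtCAGGTGggcctcaggcag
TJP1, chr15:29969120-29969149, minus strand, 88 bases before the start: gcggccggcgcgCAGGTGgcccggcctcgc
DSG2 and DSP held 2 matches each, and CDH2, CDH10, GJA1, CLDN11 and CLDN12 held none in this window. A match of 6 letters is a description of the sequence and shows neither binding nor a reason for a change.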

How the data were processed

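MDA-MB-231 cells treated with si-CTRL or si-SAM68 siRNAs were analysed as 3 libraries per group, with groups and replicate numbers taken from the sample labels. The authors deposited 1 table, whose values are a signal: reads per FAST DB locus (hg19) divided by the DESeq2 size factor of the library, without pooling. Per the labels, FastQC, Picard, SAMtools, STAR 2.4.0 and DESeq2 were used. The counting program and use of strand are not given in the sources used here. A locus can join several genes, whose reads cannot be separated. In every library, 100% of the values were whole multiples (tolerance 0.01) of its smallest difference between values, and the multiples served as reads. This unit was 1.01 for si-SAM68 replicate 1, too near 1 for an automatic check.

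The test was limma 3.58.1 (R 4.3.3, lmFit and eBayes with a trend, two-sided) on log2(value + 1), for the 18849 loci whose mean reached 10, with Benjamini-Hochberg adjustment over all of them. On this scale the fold change of low genes is understated. Ranges after ± are SD, and standard errors and 95% intervals are those of limma. Members were chosen by symbol, and the members, the groups of further genes and the tests were chosen with earlier results of these data known. The genes named with every library's value are those called by either threshold, a set of genes listed whatever their values, and the 2 with the most reads per kb in each junction type. Exon lengths are unions of GENCODE v29 exons and serve for length only. Promoters are from RefSeq (GRCh38.p14), and siRNA sequences from the study's supplement.

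Deviations from the group means correlated at 0.105, 0.231 and 0.125 between libraries of the same number, and at -0.125 to 0.00687 otherwise, so libraries of 1 number may be pairs. The main fit did not use this pairing, and the replicate block, which does, is an alternative fit. The other alternatives were pseudocounts of 0.1 and 5, no minimum and a minimum of 50, TMM and quantile scaling, eBayes without or with a robust trend, each library left out, edgeR 4.0.16 and DESeq2 1.42.0 on the recovered reads, and stricter thresholds. Programs were tested on simulated data. Replicates were separate libraries by their counts (chi-square per degree of freedom of at least 12.6 within a group). Exon-level data were not used here, and 1 tested tight junction gene is counted in the totals but not otherwise reported here.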

Additional observations from a re-analysis of the deposited data

How the results depend on the processing

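The 12 junction genes at adjusted p under 0.05 became 7 (5 higher, 2 lower) with eBayes without a trend, 5 with a threshold of 0.01, and 5 to 15 with each library left out, while the other alternatives gave 8 to 15. All loci called went from 2017 to 899 with eBayes without a trend and to between 625 and 2839 with a library left out. By p and fold change, 10 junction genes became 2 at a fold change of at least 2 and 8 to 12 with a library left out, and the 1445 loci became 2240 with no minimum and 1301 to 1831 with a library left out. With the replicate block, 10 junction genes (6 higher, 4 lower) and 1697 loci were called: CDH2 (adjusted p = 0.0592), DSP (0.0601) and the CLDN11 locus (0.0538) were lost and CDH23 (0.0351) gained, and the block changed no other call among the junction genes. edgeR called 12 junction genes and 2026 loci, DESeq2 15 and 2789, with no adjusted p for 2209 loci. No junction gene named here that was called changed direction under any alternative, and no scaling moved the median of all loci by over 0.1. Whether depth limited the calls was not tested, and the 26 genes below the minimum, CDH1 among them, had too few reads for a comparison. With 3 libraries per group, 7 of the 12 calls were lost in at least 1 fit with a library left out; the cause was not tested.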
